A study of Canis lupus familiaris with 30 samples.

Results

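The genes described here are cyclins, their kinases and the retinoblastoma protein: CCND2, CCND3, CCNE2, CCNA2, CCNB2, CDK1, CDK2, CDK4, CDK6 and RB1. Of these 10 listed genes, 7 could be tied to an Ensembl gene ID through the supplementary tables of the study, out of 32704 gene IDs in the deposited matrices. CCND2, CCND3 and CDK6 had no ID in the tables used and were not analysed here. RNA came from fine needle aspirates of enlarged lymph nodes of 15 dogs with lymphoma (canine lymphoma, cL), and each dog gave a library at the six-week timepoint, 6 weeks into CHOP treatment, and a library at the initial timepoint, before treatment. CHOP combines cyclophosphamide, doxorubicin, vincristine and prednisone. The dogs were patients that could have had 1 injection of prednisone, and no other therapy, before the first aspirate, and the sample labels give no age. By the immunophenotype label, 3 dogs were T-Cell (028, 036 and 038), 7 were B-Cell (003, 027, 029, 030, 033, 034 and 037) and 5 were Unknown (024, 025, 026, 031_032 and 035). There were no healthy or untreated control dogs, so time under treatment and treatment itself cannot be told apart, and an aspirate holds tumor cells together with other cells of the node.

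The cell cycle is driven by cyclin-dependent kinases, which are active only when bound to a cyclin. In early G1, D-type cyclins with CDK4 or CDK6 begin to phosphorylate RB1, which holds back the E2F transcription factors. Cyclin E with CDK2 completes that step and starts DNA replication, cyclin A serves S phase and G2, and cyclin B with CDK1 drives mitosis. CCNE2, CCNA2, CCNB2 and CDK1 are themselves transcribed periodically in dividing cells, whereas RB1 acts as a brake that is mainly regulated by phosphorylation, which RNA levels do not show.

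The deposited values were FPKM, which are scaled to transcript length and sequencing depth and so can be compared between genes, and read counts under the same gene IDs. The libraries held 4318394 to 43413353 counts, with the least in dog 036 at 6 weeks. In 9 dogs the rank of genes by count was close to that by FPKM (Spearman's rho across genes 0.880 to 0.983 per library), and in the 6 other dogs (024, 027, 028, 029, 030 and 035) they did not (0.0868 to 0.117). The members showed this plainly. The counts of CDK1 in these 6 dogs were 0 to 9 at both timepoints, with FPKM of 4.22 to 38.4 at 6 weeks and 4.74 to 43.9 at the initial timepoint. In the 9 dogs the counts of CDK1 were 63 to 690 at 6 weeks and 293 to 1609 at the initial timepoint, with FPKM of 5.87 to 22.4 and 8.67 to 32.2. For RB1, the counts in the 6 dogs were 6 to 27 at 6 weeks and 5 to 15 at the initial timepoint, against 199 to 2091 and 764 to 3661 in the 9 dogs, although the FPKM ranges of both sets overlapped. FPKM were therefore used as the main values and counts in the 9 dogs alone.

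**Figure D1:**
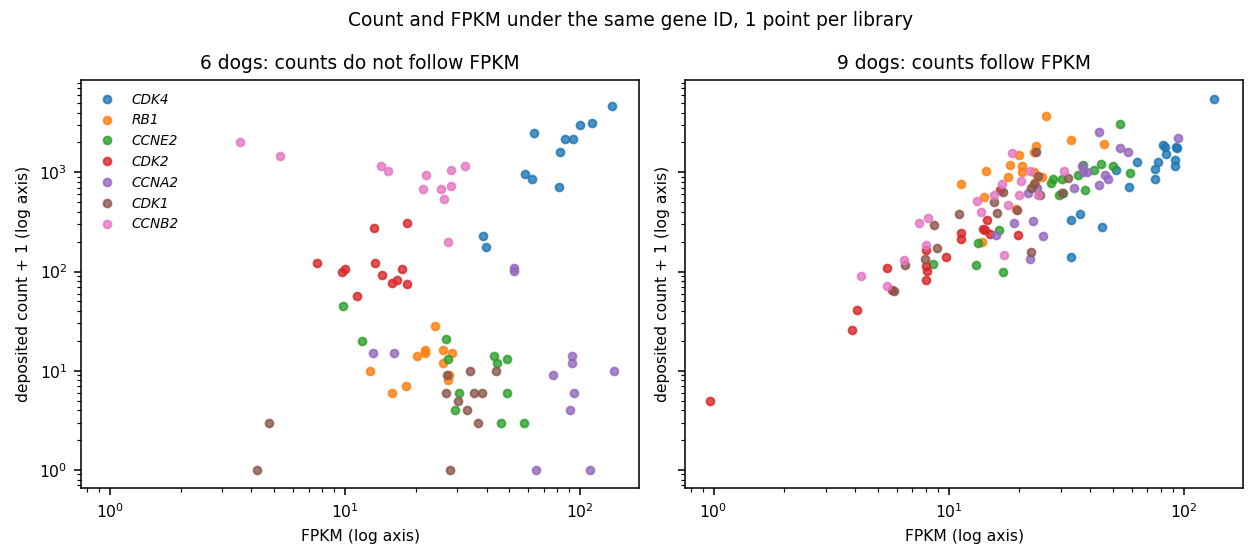
Deposited count plus 1 against FPKM under the same gene ID for the 7 members, both on log axes, with 1 point per library and gene; left the 12 libraries of the 6 dogs whose counts do not follow FPKM, right the 18 libraries of the other 9 dogs. On the right the points form a band in which counts go up with FPKM, and on the left CDK1, RB1 and CCNE2 stay at counts of 44 or less at every FPKM.

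A limit of the gene names bears on every comparison of timepoints. The supplementary tables used as a source of IDs are sorted by p-value and were held in shortened form, with only the genes of smallest p-value in each. The IDs of CDK4, CCNE2, CDK2, CCNA2, CCNB2 and CDK1 were found in the table of six-week against initial values of 1 of the study's cluster groups, and those of RB1 and also CDK1 in the table between cluster groups at the initial timepoint. Six-week changes of the members are therefore not independent of how their IDs were found, and they are given as a description. The 1809 tested gene IDs in that table of timepoints had a median log2 change of -0.14 over the 15 dogs and were negative in 57.7%, against -0.01 and 51.4% over all 14257 gene IDs tested. At an unadjusted p under 0.05, 23.4% of the IDs in that table were lower at 6 weeks, against 5.13% of all gene IDs.

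Markers of B and T cells followed the immunophenotype label in most dogs but not in all. CD3E, a chain of the T-cell receptor complex, and PAX5, a transcription factor of B cells, are in the lists of markers used. Dog 038, labelled T-Cell, had 62.8 FPKM of PAX5 and 14.6 FPKM of CD3E at the initial timepoint. Dog 029, labelled B-Cell, had 17.7 FPKM of PAX5 and 178 FPKM of CD3E. The other T-Cell dogs, 028 and 036, had 1.52 and 0.291 FPKM of PAX5 with 188 and 328 FPKM of CD3E at that timepoint. In dog 036 PAX5 was 12.7 FPKM and CD3E 64.7 FPKM at the six-week timepoint. Estimates that rest on the labels are followed by those without dogs 029 and 038. The markers given for these dogs are those of the initial timepoint. Marker levels also differed within dog 025, labelled Unknown, whose summed T-cell markers were 408 FPKM at 6 weeks and 36.0 FPKM initially, with 34.1 and 123 FPKM for the B-cell markers PAX5 and CD22. Its 2 libraries had the lowest correlation of any pair in their deviations from the timepoint means (-0.11).

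All 7 members were expressed in every library, and they covered a wide span of levels. CDK4 (ENSCAFG00000000280), the G1 kinase, was the most abundant member at both timepoints, with a median of 75.5 FPKM at 6 weeks (range 33.1 to 136) and 81.6 FPKM initially (38.8 to 135). CCNA2 (ENSCAFG00000004133), the cyclin of S phase and G2, had a median of 36.8 FPKM at 6 weeks (13.1 to 111) and 52.5 FPKM initially (16.1 to 139). The medians of CCNE2 (ENSCAFG00000009408), an E-type cyclin, were 27.2 FPKM at 6 weeks (8.6 to 49.0) and 37.2 FPKM initially (11.8 to 58.8). CDK1 (ENSCAFG00000012904), the mitotic kinase, was at 19.6 FPKM at 6 weeks (4.22 to 38.4) and 24.4 FPKM initially (4.74 to 43.9). RB1 (ENSCAFG00000004436) was at 20.3 FPKM at 6 weeks (12.7 to 33.0) and 23.2 FPKM initially (11.3 to 45.7). CCNB2 (ENSCAFG00000016600), a B-type cyclin, was at 15.5 FPKM at 6 weeks (3.56 to 32.5) and 20.4 FPKM initially (5.29 to 31.1). CDK2 (ENSCAFG00000000082), the partner of cyclins E and A, was lowest, at 8.10 FPKM at 6 weeks (0.967 to 16.6) and 14 FPKM initially (5.47 to 19.7). The timepoints overlapped for every member.

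The order of levels was tested between neighbours within the libraries (exact permutation of signs over the 15 dogs, two-sided, on log2(FPKM+1), adjusted over the 12 pairs compared). Neighbours were set by the medians of the same libraries, and the p-values do not take this into account. At the six-week timepoint CDK4 exceeded CCNA2 by 0.74 ± 0.63 (SD, n = 15; exact adjusted p = 0.00238) and CCNA2 exceeded CCNE2 by 0.65 ± 0.65 (exact adjusted p = 0.00195). CDK1 exceeded CCNB2 in 15 of 15 dogs, by 0.33 ± 0.26, with the smallest p that 15 dogs allow (exact p = 6.10e-05, adjusted 0.000732), and CCNB2 exceeded CDK2 in 13 of 15 dogs (exact adjusted p = 0.0417). CCNE2 and RB1 (exact adjusted p = 0.372) and RB1 and CDK1 (exact adjusted p = 0.368) did not differ beyond their spread. At the initial timepoint CDK4, CCNA2 and CCNE2 followed each other in the same order (exact adjusted p = 0.0125 and 0.0337), CCNE2 exceeded CDK1 in 14 of 15 dogs (exact adjusted p = 0.00195) and CCNB2 exceeded CDK2 in 13 (exact adjusted p = 0.0125). The pairs CDK1 and RB1 (exact adjusted p = 0.886) and RB1 and CCNB2 (exact adjusted p = 0.225) were not separated there.

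The members differed in how far dogs lay apart. At the initial timepoint, the highest dog had 9.27 times the CDK1 level of the lowest, 8.64 times for CCNA2 and 5.87 times for CCNB2. The same ratio was 3.47 for CDK4, 3.61 for CDK2, 4.04 for RB1 and 5.0 for CCNE2. The coefficient of variation was 29.4% for CDK4, 31.7% for CDK2, 32.8% for RB1 and 33.1% for CCNE2, and 37.9% for CCNB2, 41.3% for CDK1 and 54.7% for CCNA2. At 6 weeks it was 27.6% for RB1 and 42.5% to 70.9% for the other 6 members. Dog 029 had the lowest initial level of CDK4, CCNE2, CCNA2, CCNB2 and CDK1, and dog 035 the highest of CCNA2 and CDK1.

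**Figure D2:**
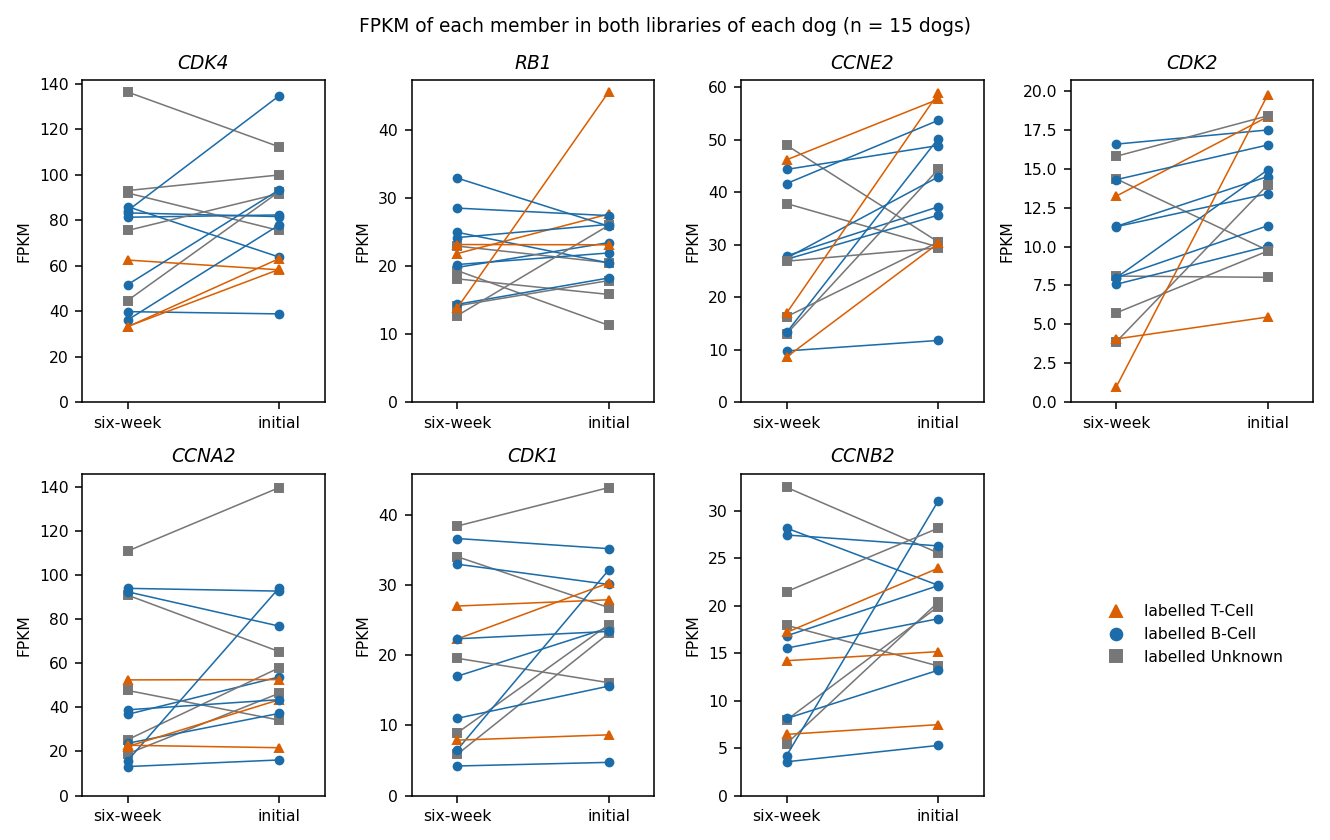
FPKM of each of the 7 members (y axis, linear from 0) at the six-week timepoint (left) and the initial timepoint (right), with a line for each of the 15 dogs; orange triangles are dogs labelled T-Cell, blue circles B-Cell and gray squares Unknown. Most lines for CCNE2 and CDK2 are lower on the left (13 of 15 dogs each), while the lines of RB1 go both ways (8 of 15 lower on the left).

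The first comparison was between the six-week and the initial timepoint within each dog. At 6 weeks each of the 6 cyclins and kinases was lower than initially in 9 to 13 of the 15 dogs, and RB1 in 8. None of the 7 members passed the threshold of an FDR-adjusted p-value below 0.05 in limma with the dog as a block, and neither did any other of the 14257 gene IDs (0% called lower, 0 called higher, with 1823 gene IDs at an unadjusted p under 0.05). In bulk RNA, fewer dividing cells and less RNA of these genes per cell cannot be told apart.

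CCNE2 had the largest estimate among the members. Its log2 change was -0.63 (SE 0.186, 95% interval -1.02 to -0.24, adjusted p = 0.298), and it was lower at 6 weeks in 13 of 15 dogs. With no filter on low FPKM its adjusted p was 0.0453, in a fit that called 3054 gene IDs, 37 of them lower. In dog 034 it was 13.3 FPKM at 6 weeks and 50.2 FPKM initially, and in dog 024, where it was highest at 6 weeks, 49.0 FPKM and 30.5 FPKM. CDK2, its partner kinase, had a log2 change of -0.58 (SE 0.215, adjusted p = 0.316) and was also lower in 13 of 15 dogs. The widest difference in CDK2, in dog 036, rested on 0.967 FPKM at 6 weeks, which is 4 reads in the shallowest library, and 19.7 FPKM initially. Without dog 036 the estimate for CDK2 was -0.37 (adjusted p = 0.282). CDK4 had a log2 change of -0.31 (SE 0.131, adjusted p = 0.351) and was lower in 9 of 15 dogs.

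The genes of S phase and mitosis were close to each other. CCNB2 had a log2 change of -0.49 (SE 0.195, adjusted p = 0.330) and was lower at 6 weeks in 11 of 15 dogs. For CCNA2 it was -0.43 (SE 0.187, adjusted p = 0.353, 10 of 15 dogs) and for CDK1 -0.43 (SE 0.179, adjusted p = 0.344, 11 of 15 dogs). The spread between dogs was wide, and the median change over dogs was -0.14 for CDK1 and -0.28 for CCNA2. Dog 034 had the largest decrease in all 3 of these genes, with 6.50 FPKM of CDK1 at 6 weeks and 32.2 FPKM initially, 15.8 and 94.1 FPKM of CCNA2, and 4.22 and 31.1 FPKM of CCNB2. Without dog 034 the estimates were -0.29 for CCNA2, -0.33 for CCNB2 and -0.31 for CDK1, with adjusted p-values of 0.576, 0.559 and 0.576 from limma. T-cell markers were also higher in that dog's second library, with CD3E at 149 FPKM at 6 weeks and 27.4 FPKM initially, and their part in the result was not tested.

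RB1, the pocket protein that the kinases phosphorylate, had a log2 change of -0.15 (SE 0.140, 95% interval -0.45 to 0.14, adjusted p = 0.665). It was lower at 6 weeks in 8 dogs and higher in 7. Its widest difference was in dog 036, with 13.8 FPKM at 6 weeks and 45.7 FPKM initially, and without that dog the estimate was -0.05. In dog 025 it ran the other way, with 19.4 FPKM at 6 weeks and 11.3 FPKM initially, although CDK1 in the same dog was 5.87 FPKM and 23.1 FPKM. In dog 036 CDK2 was lower together with RB1.

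**Figure D3:**
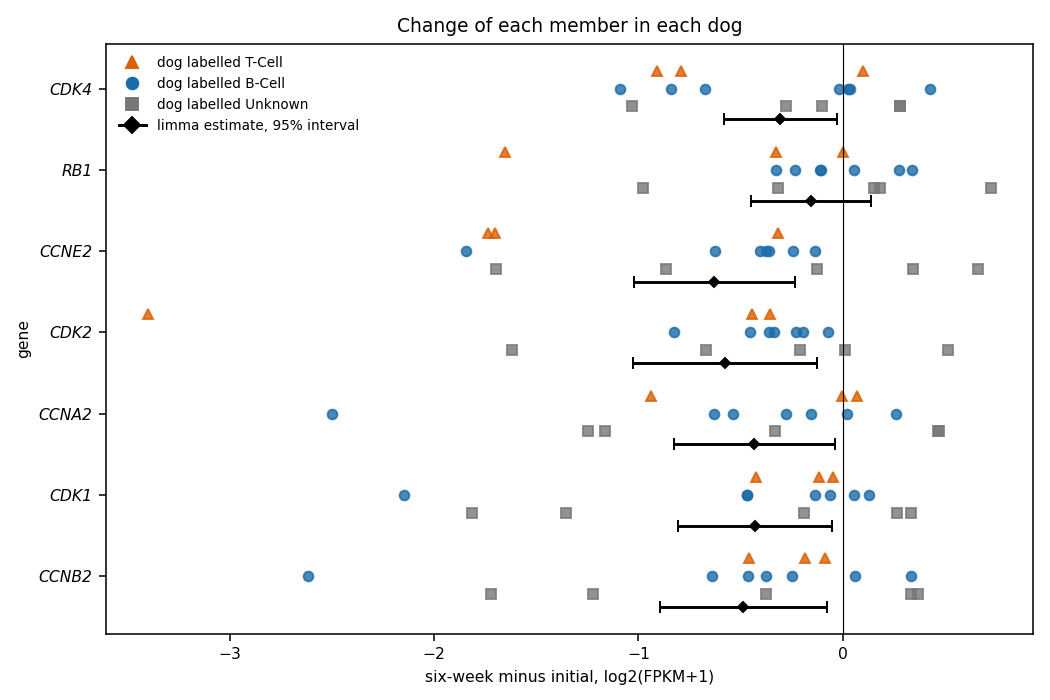
Six-week minus initial difference of log2(FPKM+1) (x axis) for each member (rows), with 1 point per dog (orange triangles T-Cell, blue circles B-Cell, gray squares Unknown) and the limma estimate over 15 dogs with its 95% interval as a black diamond. The intervals of the 6 cyclins and kinases lie left of 0 before adjustment, as did 5.13% of all gene IDs and 23.4% of those in the table that gave these 6 IDs, that of RB1 spans 0 (-0.45 to 0.14), and a few dogs lie far to the left of the rest.

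By dog, in FPKM, all 6 members other than RB1 were lower at 6 weeks in 7 of 15 dogs (025, 031_032, 033, 034, 035, 036 and 037) and all 6 were higher in 2 dogs (024 and 026). The median log2 change over the 7 members was -1.84 in dog 034, -1.62 in dog 025, -0.94 in dog 036 and -0.86 in dog 031_032. The 2 libraries of dog 031_032 carry different dog numbers, and their pairing is assumed. The part of the marker levels of dogs 025, 034 and 036 in these values was not tested. The median was 0.33 in dog 024 and 0.28 in dog 026, both labelled Unknown. In CPM, the counts scaled by library size, of the 9 dogs whose counts followed FPKM, which leaves out dogs 024 and 035, the 6 were all lower in 6 dogs and all higher in 0. In dog 026, CDK4 was 80.3 at 6 weeks and 80.9 initially on that scale, CDK1 28.8 and 29.1, and CDK2 7.01 and 8.48, so that 3 of 6 were lower. In dog 033, CCNE2 was 55.6 CPM at 6 weeks and 55.1 initially, and the other 5 were lower. In dog 024 CCNA2 was 90.8 FPKM at 6 weeks and 65.2 FPKM initially, CDK1 34.1 and 26.8 FPKM, and CDK4 136 and 112 FPKM. In dog 030 the changes were close to 0 for CDK4 (81.3 FPKM at 6 weeks and 82.3 FPKM initially) and CDK1 (36.7 and 35.2 FPKM), with lower CCNE2 (27.5 and 42.9 FPKM). With 1 library per dog and timepoint, a single dog's difference has no replicate check.

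The change was also computed within the 9 dogs whose counts followed FPKM and within the 6 others, the second of these fits being chosen after the data were seen. In FPKM of the 9 dogs, the log2 change was -0.96 for CCNE2 (SE 0.240), -0.59 for CDK4 (SE 0.162), -0.73 for CDK1 (SE 0.250) and -0.11 for RB1 (SE 0.208). In FPKM of the 6 dogs it was -0.13 for CCNE2 (SE 0.148), 0.12 for CDK4 (SE 0.086), 0.02 for CDK1 (SE 0.085) and -0.21 for RB1 (SE 0.143). No member was called in either set, and the difference between the sets was not tested. The IDs of the 6 cyclins and kinases came from a table sorted by p-value in a comparison of the same timepoints, so that these values are a description. That table is of a cluster group of 9 dogs, with as many of each label as the 9 dogs here. The sample labels do not name the group. If the dogs are the same, larger decreases in the 9 than in the 6 are favoured by how the IDs were found.

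Counts of the 9 dogs gave the same direction for all 7 members. With edgeR, 0 of 7 members and 0 of 22610 gene IDs were called (0% lower, with 3891 higher and 2796 lower at an unadjusted p under 0.05). The log2 changes were -1.19 for CCNE2 (SE 0.300, adjusted p = 0.102), -0.80 for CDK4 (SE 0.206, adjusted p = 0.102) and -0.30 for RB1 (SE 0.204, adjusted p = 0.317). With DESeq2 on the same counts, CCNE2 (-1.0, SE 0.283, adjusted p = 0.00874) and CDK4 (-0.61, SE 0.190, adjusted p = 0.0177) were down-regulated. That is 2 of 7 members, where 2.31% of the 23038 gene IDs with an adjusted p were called lower. The IDs of both came from the table, sorted by p-value, of six-week against initial values of 1 cluster group. That group also had 9 dogs, with as many of each label as the 9 here. The share of all gene IDs is therefore not a like base, and these calls are a description. For CDK2, CCNA2, CCNB2 and CDK1 the adjusted p-values of DESeq2 were 0.0561 to 0.0588, and for RB1 0.722.

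No marker of other cells passed the test between timepoints, and most estimates were positive. All 6 T-cell markers with an ID had positive estimates (median log2 change 0.70 at 6 weeks, 0 of 6 called), as did the 3 macrophage and monocyte markers (median 0.56, 0 called), the 2 cytotoxic (0.73), the 2 neutrophil (0.60), the 5 stromal and vessel (0.31) and the 4 plasma cell markers (0.41). The 2 B-cell markers, PAX5 and CD22, had a median of -0.29. Some cytotoxic, neutrophil and stromal markers had low levels. Means over all libraries were 2.31 FPKM for GZMA, 1.70 for CSF3R, 1.35 for COL1A1, 1.49 for COL3A1 and 1.85 for KDR. VWF was lower still, and GZMK, S100A8 and PECAM1 were at 13.3, 13.4 and 20.3 FPKM. With no filter on FPKM, 3017 gene IDs were called higher and 37 lower, most at a mean of 1 FPKM or less. Whether low levels favoured positive estimates in these lists was not tested. By dog, the summed T-cell, cytotoxic, macrophage, neutrophil and stromal lists were each higher at 6 weeks in 9 of 15 dogs, the plasma cell list in 11 and the B-cell list in 3. The summed FPKM of the T-cell list was 24.5 to 536 at 6 weeks and 19.8 to 715 initially, and that of the macrophage list, CSF1R, C1QA and C1QB, was 3.48 to 249 and 4.67 to 70.1. Most of these IDs came from the same tables sorted by p-value. Over the 15 dogs, the change of the macrophage sum and that of CCNE2 were negatively correlated (Pearson's r = -0.78, permutation p = 0.00089, adjusted 0.0125 over 14 relations; Spearman's rho = -0.58, permutation p = 0.0267, adjusted 0.135). Without the 2 dogs farthest from the median of the marker change, 025 and 036, r was -0.66. For CDK2 r was -0.65 (permutation p = 0.00354, adjusted 0.0248) and -0.42 without these dogs, for CDK4 -0.66 (permutation p = 0.00893, adjusted 0.0417) and -0.53, and for CDK1 -0.58 (permutation p = 0.0211, adjusted 0.0515) and -0.48. For CCNB2 r was -0.57 (permutation p = 0.0221, adjusted 0.0515) and -0.52 without these dogs. For CCNA2 it was -0.53 (permutation p = 0.0407, adjusted 0.0814) and -0.44. No rho of these passed the adjustment. For RB1 r was 0.00 (permutation p = 0.991). The IDs of the 3 macrophage markers and of the 6 cyclins and kinases were all in the table of six-week against initial values, and that of RB1 was not. Negative relations can be favoured by this, and the permutation p-values do not take it into account. With the T-cell sum, no member passed in r or rho. The part of other cells in the members' changes was not tested.

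The changes were then compared by immunophenotype label, in a single fit with a time coefficient for each label. In the 3 T-Cell dogs CCNE2 was 17, 46.2 and 8.6 FPKM at 6 weeks in dogs 036, 028 and 038, and 58.8, 57.7 and 30.3 FPKM initially. Its log2 change was -1.25 (SE 0.400, adjusted p = 0.135). CDK2 was 0.967, 13.2 and 4.06 FPKM at 6 weeks and 19.7, 18.3 and 5.47 FPKM initially in the same dogs, with a log2 change of -1.40 (SE 0.452, adjusted p = 0.138). RB1 was 13.8, 21.9 and 23.2 FPKM at 6 weeks and 45.7, 27.7 and 23.2 FPKM initially (-0.66, SE 0.298, adjusted p = 0.231). CDK1, in contrast, was 22.3, 27.0 and 7.91 FPKM at 6 weeks and 30.3, 27.9 and 8.67 FPKM initially (-0.20, adjusted p = 0.814). The estimates of CCNE2 and CDK2 were larger than those of the mitotic genes, a difference that was not tested, with 0 of 14257 gene IDs called by limma (2862 at an unadjusted p under 0.05). Markers of other cells had estimates of like size or larger in the same fit, with medians of 1.90 for the macrophage list (3 of 3 positive, C1QA 2.21), 1.52 for the plasma cell list (4 of 4) and 1.19 for the stroma and vessel list (5 of 5, PECAM1 1.82), and 0 called. Without dogs 029 and 038 the T-cell markers were negative in 6 of 6 (median -0.71) and the B-cell markers positive in 2 of 2 (median 1.58), 0 called. Their part in the members' values was not tested.

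The T-Cell values depended on which dogs entered. Without dog 028, CCNE2 (-1.72, adjusted p = 0.0307) and CDK2 (-1.88, adjusted p = 0.0381) passed the threshold, 2 of 7 members where 5.19% of all gene IDs were called lower and 751 gene IDs were called higher. This rests on dog 036, with the shallow library, and dog 038, with B-cell markers against its label at the initial timepoint. In dog 038 the summed B-cell markers were 47.5 FPKM at 6 weeks and 135 FPKM initially, and the T-cell markers 102 and 35.0 FPKM. Its macrophage sum was 249 FPKM at 6 weeks and 63.7 FPKM initially. The part of these marker levels was not tested. The IDs of CCNE2 and CDK2 came from the table of six-week against initial values, so the share of all gene IDs is not a like base for them. Without dog 036 the log2 change of CDK2 was -0.40 and that of CCNE2 -1.01. Without dogs 029 and 038 they were -1.92 (adjusted p = 0.290) and -1.02 (adjusted p = 0.329), with -0.99 for RB1 (adjusted p = 0.290) and -0.24 for CDK1 (adjusted p = 0.837). Scaling FPKM to a common sum gave a median change of all gene IDs in the T-Cell dogs of -0.32, against -0.09 without it, and -1.57 for CDK2.

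In the 7 B-Cell dogs CCNE2 and CDK2 were lower at 6 weeks in 7 of 7, with log2 changes of -0.57 (SE 0.262) and -0.35 (SE 0.296). CCNB2, CCNA2 and CDK1 were lower in 5 of 7 and CDK4 in 4 of 7, with estimates of -0.56, -0.55, -0.44 and -0.30. RB1 was lower in 4 of 7, with an estimate of -0.02 (SE 0.195). Dog 034 had a large part in these values, and without it the estimates were -0.36 for CCNE2, -0.28 for CDK2, -0.22 for CCNB2 and CCNA2, and -0.16 for CDK1. Without dog 029 (and dog 038) they were -0.62 for CCNE2, -0.35 for CDK2, -0.58 for CCNB2, -0.59 for CCNA2, -0.49 for CDK1, -0.36 for CDK4 and -0.03 for RB1, with adjusted p-values of 0.944 or more. With all dogs the 7 had an adjusted p of 0.935 or more from limma (548 gene IDs at an unadjusted p under 0.05, 0 called). In the 5 Unknown dogs 3 had lower and 2 had higher values of each cyclin and kinase at 6 weeks. CDK1 was 34.1, 5.87, 19.6, 8.93 and 38.4 FPKM at 6 weeks in dogs 024, 025, 026, 031_032 and 035, and 26.8, 23.1, 16.1, 24.4 and 43.9 FPKM initially (log2 change -0.55, SE 0.324, adjusted p = 0.951). The groups overlapped, with dogs 025 and 031_032 at the low end at 6 weeks. No member passed there, with 0 gene IDs called by limma and 650 at an unadjusted p under 0.05.

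The difference in change between T-Cell and B-Cell dogs was tested directly. It was -1.04 for CDK2 (95% interval -2.19 to 0.10, adjusted p = 0.360), -0.68 for CCNE2 (-1.70 to 0.33, adjusted p = 0.479) and -0.64 for RB1 (-1.40 to 0.11, adjusted p = 0.381). For CDK1 it was 0.25 (-0.81 to 1.31, adjusted p = 0.818). Without dogs 029 and 038 the difference was -1.57 for CDK2 (adjusted p = 0.341), -0.96 for RB1 (adjusted p = 0.346), -0.40 for CCNE2 (adjusted p = 0.745), 0.01 for CDK4 and 0.26 for CDK1. Without dog 036 the difference for CDK2 was -0.04, and without dog 034 that for CDK1 was -0.04. No member and 0 gene IDs were called by limma, with 2187 at an unadjusted p under 0.05. The intervals are wide. A change that differs more than 2-fold (1 log2 unit) between the labels is within that of every member except CDK4, whose interval ended at -0.99.

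Levels were also compared between T-Cell and B-Cell dogs at each timepoint, a comparison that is not among those of the tables of IDs. At the initial timepoint CDK4 was 58.4, 58.2 and 63.1 FPKM in T-Cell dogs 036, 028 and 038, against 38.8 to 135 FPKM (median 81.6) in the 7 B-Cell dogs. The log2 difference was -0.36 (SE 0.270, 95% interval -0.94 to 0.21, adjusted p = 0.440). RB1 was 45.7, 27.7 and 23.2 FPKM in T-Cell dogs, against 18.3 to 27.5 FPKM (median 23.5) in B-Cell dogs, with a difference of 0.40 (SE 0.242, adjusted p = 0.341). CCNE2 was 58.8, 57.7 and 30.3 FPKM, against 11.8 to 53.7 FPKM (median 42.9), a difference of 0.34 (adjusted p = 0.606). The remaining 4 members had differences of -0.48 (CCNA2) to -0.07 (CDK1), with adjusted p-values of 0.598 to 0.951. The groups overlapped in all 7 members, and 0 of 7 passed, where 0.344% of all gene IDs were called by limma. Of these 49 gene IDs, 15 were higher in T-Cell dogs, or 30.6%, and 47.1% of the calls were higher when libraries were centred on their median.

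Leaving out the 2 dogs whose markers went against their label changed the number of calls over all gene IDs at the initial timepoint to 1656 higher and 1790 lower (24.2% called), and still no member was called. CDK4 then had a difference of -0.56 (adjusted p = 0.0978) and RB1 of 0.64 (adjusted p = 0.103). The differences of CDK2 and CDK1 were 0.36 and 0.16 without these dogs (adjusted p = 0.335 and 0.750), against -0.11 and -0.07 with them. In the same fit 3 of 3 macrophage markers were lower in T-Cell dogs (median -1.74), and their part in the members' values was not tested. A p-value above the threshold does not show that the levels are alike, and the remaining group of T-Cell dogs had 2 members.

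At the six-week timepoint CDK2 was 0.967, 13.2 and 4.06 FPKM in T-Cell dogs 036, 028 and 038, against 7.57 to 16.6 FPKM (median 11.3) in B-Cell dogs. This was the largest difference among the members (-1.15, SE 0.501, 95% interval -2.22 to -0.09, adjusted p = 0.569), and it was -1.20 without dogs 029 and 038 (adjusted p = 0.464) and -0.45 without dog 036. CDK4 was 33.3, 62.5 and 33.1 FPKM in T-Cell dogs, against 36.1 to 86.0 FPKM (median 81.3) in B-Cell dogs (-0.59, SE 0.365, adjusted p = 0.628). The other 5 members lay between -0.34 (CCNE2) and 0.18 (CDK1). Without dogs 029 and 038 the differences were -0.55 for CDK4, -0.33 for RB1, -0.26 for CCNA2, -0.01 for CCNE2, 0.14 for CCNB2 and 0.42 for CDK1, with adjusted p-values of 0.643 to 0.995. Dogs 029 and 038 were named for their markers at the initial timepoint. At the six-week timepoint dog 038 had summed T-cell markers of 102 FPKM and B-cell markers of 47.5 FPKM. Dog 034, labelled B-Cell, had 355 and 39.7 FPKM and was kept. The values without dogs 029 and 038 are therefore not free of dogs whose markers differ from their label. No member and no gene ID was called (0%), with 1245 gene IDs at an unadjusted p under 0.05. The macrophage sum was 16.5 to 249 FPKM in T-Cell dogs and 7.28 to 120 FPKM in B-Cell dogs at this timepoint, and its part in these differences was not tested.

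**Figure D4:**
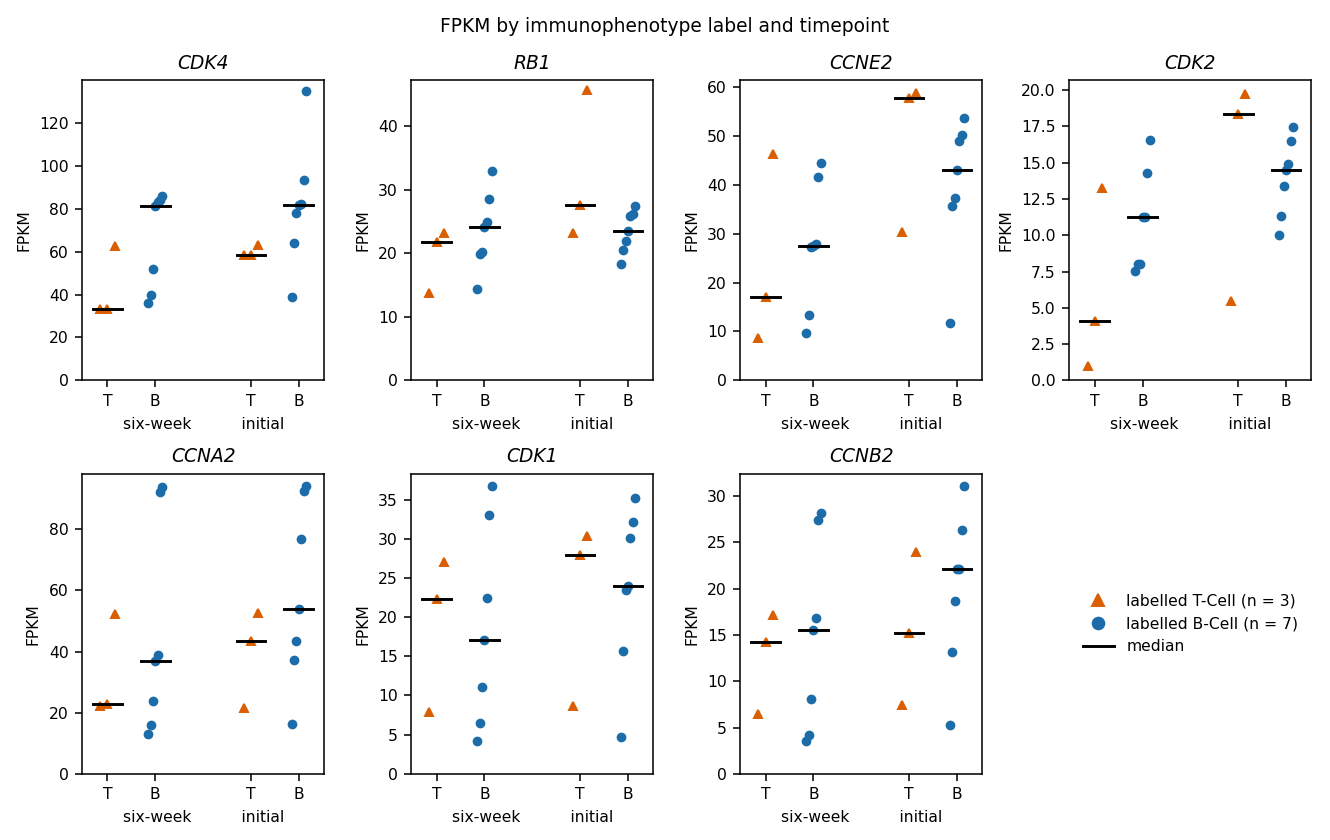
FPKM of the 7 members (y axis, linear from 0) in dogs labelled T-Cell (T, orange triangles, n = 3) and B-Cell (B, blue circles, n = 7) at the six-week timepoint (left pair) and the initial timepoint (right pair), with the median as a black line. The groups overlap in every panel, and the T-Cell dogs of CDK2 at 6 weeks (0.967 to 13.2 FPKM) reach below all B-Cell dogs.

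How the members changed together was described by correlating their within-dog changes over the 15 dogs, for all 21 pairs. The IDs of the 6 cyclins and kinases came from the table of six-week against initial values, and that of RB1 did not. Relations among the 6 are favoured by this, and the permutation p-values do not take it into account. The changes of CCNB2 and CDK1 were the most closely related (Pearson's r = 0.98, Spearman's rho = 0.94), followed by CCNA2 with CCNB2 (0.96 and 0.94) and CCNA2 with CDK1 (0.94 and 0.96). In these 3 pairs the permutation p of 1e-05 was the smallest that 100000 permutations can give, with an adjusted p of 7e-05. Without the 2 dogs farthest from the median of the first gene's change, r was 0.94, 0.90 and 0.87. CCNE2 followed CDK4 with r = 0.83 and rho = 0.82 (permutation p = 0.0002, adjusted 0.000882), and 0.74 without dogs 025 and 034. CDK4 and CDK1 had r = 0.67 (permutation p = 0.00393, adjusted 0.0075), which was 0.42 without the same 2 dogs.

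CDK2 was related to CCNA2, CCNB2 and CDK1 by rank (rho = 0.85, 0.82 and 0.81, adjusted permutation p = 0.00063 to 0.00134). By Pearson's r the same pairs had 0.51, 0.39 and 0.42 (adjusted permutation p = 0.111 to 0.168), and 0.79 to 0.80 without dogs 025 and 036. RB1 passed the adjustment with none of the 6 others, with r of -0.21 to 0.52 and rho of -0.15 to 0.21 (adjusted permutation p of r = 0.111 to 0.941). Its highest r, with CDK2, rested on dogs 035 and 036 and was -0.36 without them. RB1 is also the member whose ID was not in the table of six-week against initial values. The genes of a library share its scaling and its cell composition, so that these relations do not tell regulation of a gene from the share of dividing cells.

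**Figure D5:**
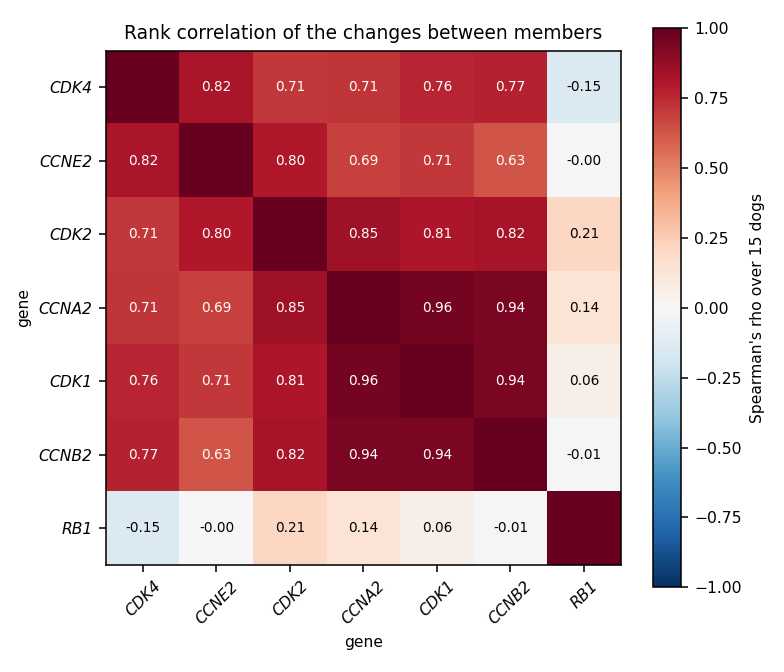
Spearman's rho between the within-dog changes of each pair of members over 15 dogs, on a color scale of -1 (blue) to 1 (red), with both axes listing the genes. The 6 cyclins and kinases form a block of 0.63 to 0.96, and the row of RB1 holds -0.15 to 0.21. The IDs of the 6 came from the table of six-week against initial values, and that of RB1 did not.

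Further genes of the pathway with an ID were described by list over the 15 dogs. Of 15 proliferation markers, 15 had negative estimates at 6 weeks (median log2 change -0.45, 0 called), and the IDs of all 15 were in the table of six-week against initial values. Among them were TOP2A, which relaxes DNA and is a target of doxorubicin (-0.68), and MKI67, the Ki-67 antigen of dividing cells (-0.52). Of 11 genes of E2F factors and pocket proteins, 10 were negative (median -0.27, 0 called), including RBL1, a relative of RB1 (-0.35), and E2F8, a repressor of the E2F family (-0.49). The IDs of 8 of the 11 were in the same table. The 6 other CDKs and regulators had a median of -0.21, with 5 negative, 0 called, and WEE1, which inhibits CDK1, at -0.39. That table also held the IDs of 4 of these 6. The 3 other cyclins were all negative (median -0.14, 0 called), with the ID of 1 of the 3 in that table. Among all gene IDs with a symbol, 61.7% had negative estimates, against 51.4% of all gene IDs tested. Negative estimates in these lists are favoured by this, and the lists are a description. Of 2 CDK inhibitors with an ID, CDKN1A, the inhibitor p21, had an estimate of 0.35 (SE 0.106, adjusted p = 0.298) and CDKN3 of -0.29 (adjusted p = 0.444). The mean of CDKN1A was 1.17 FPKM over the 30 libraries, just above the filter of 1, so its estimate rests on values near the floor. The examples were chosen after their values were seen.

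Between T-Cell and B-Cell dogs at the initial timepoint, 0 genes of these lists passed. The median log2 difference was -0.33 for the proliferation markers, with 14 of 15 negative, 0.11 for the E2F and pocket protein genes, -0.33 for the other CDKs and regulators, and -0.79 for the other cyclins, beside -0.04 over all gene IDs. At the six-week timepoint the same medians were -0.30, -0.38, -0.54 and -0.14, beside -0.11 over all gene IDs, and again 0 genes passed. Without dogs 029 and 038, 7 genes of these lists passed at the initial timepoint, a smaller share of those tested than the 24.2% called among all gene IDs. They were 1 of 15 proliferation markers, 1 of 6 other CDKs and regulators and 0 of 2 CDK inhibitors. Of 11 E2F and pocket protein genes 1 was higher and 2 were lower, and of 3 other cyclins 1 was higher and 1 lower. CCNG2 (0.82) and LIN54 (0.63) were higher in T-Cell dogs, and CCNG1 (-1.15), E2F4 (-1.10), MYBL2 (-1.37), SKP2 (-0.70) and MCM3 (-0.89) lower, with limma adjusted p-values of 0.00207 to 0.0466. The medians without these dogs were -0.31 for the proliferation markers, 0.07 for the E2F and pocket protein genes, -0.45 for the other CDKs and regulators and -0.73 for the other cyclins, and at 6 weeks -0.15, -0.43, -0.56 and -0.42 with 0 genes called.

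Genes with the pattern most like CDK1 and RB1 were sought over the 15 initial libraries, among 2932 gene IDs with a symbol and a mean above 5 FPKM, as a description without a test. For CDK1 they were TPX2, a spindle assembly factor (r = 0.99), CENPL, a kinetochore protein (r = 0.97), and TOP2A (r = 0.97). In the six-week libraries r was 0.92, 0.97 and 0.96. These libraries entered the choice only through the filter on the mean, but they are of the same 15 dogs and are no independent check. For RB1 they were NCOA3, a nuclear receptor coactivator (r = 0.86), CYFIP2 (r = 0.85) and AKAP11, which anchors protein kinase A (r = 0.85). In the six-week libraries their r with RB1 was 0.60, 0.44 and 0.40. The libraries share depth and composition, and candidates are limited to genes named in the tables used.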

How the data were processed

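RNA of 30 lymph node aspirates of 15 dogs was sequenced as single reads. According to the submitters' processing notes, HISAT2 2.1.0 served as the aligner and StringTie 1.3.3 for assembly, on the dog build CanFam3.1. The deposited FPKM correct for length of the transcript and for depth, and the deposited read counts are unscaled whole numbers per gene. How transcript values were joined to a gene's FPKM is not given in the sources used here. FPKM share the counting error of the reads behind them, but they come without an estimate of it, so no interval was given for a single value.

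Log2(FPKM+1) of gene IDs with a mean FPKM above 1 was tested with limma 3.58.1 in R 4.3.3 (trended eBayes, dog as a block between timepoints, Benjamini-Hochberg over 14257 gene IDs, threshold 0.05). A fold change on this scale understates that of low genes. Counts of the 9 dogs whose counts followed FPKM (Spearman's rho of at least 0.5 in both libraries) were tested with edgeR 4.0.16 and DESeq2 1.42.0 as alternatives, and CPM used the TMM factors of edgeR. Other alternatives were the pseudocount, filters, scaling, variance model, block and leaving out dogs. Correlations used 100000 permutations in Python 3.11.15 with NumPy 2.4.6, SciPy 1.17.1 and pandas 2.3.3. Every member with an ID was named. From the other lists, genes with an adjusted p under 0.05 were to be named, and as none passed, examples were picked. Scripts were tested on simulated data. Members and lists were chosen with earlier results of these data known.

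The dog number in the labels gave the pairs. For dog 031_032, where it differs between the libraries, the consecutive library numbers that all other pairs have were used. The deviations of a dog's 2 libraries from their timepoint means had a median correlation of 0.60 (lowest -0.11), with 14 of 15 dogs above 0.1 and 9 of 15 closest to their own partner. For dog 031_032 r was 0.34 and its own partner was not the closest, as in dogs 025, 034, 036, 037 and 038. That the 2 libraries of dog 031_032 come from the same animal is therefore an assumption. In the other dogs they carry the same dog number, and the dogs were the replicates. No libraries were copies (lowest chi-square per degree of freedom 38.8). Of the gene IDs, 5084 had a symbol in the tables used, whose values were not used. Columns of the authors' comparisons in these tables were left out.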

Additional observations from a re-analysis of the deposited data

Results flagged for a closer look

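In 42 groups of values (7 members, dogs labelled B-Cell or Unknown, and 3 measures), a dog stood apart from the others of its group in 6. Chance gives about 1 in 20 for independent groups. These groups are not independent, because the members' values are correlated within dogs, so the 2 shares are not compared. Dog 034 lay below the other B-Cell dogs in the log2 change of 4 members, with -1.84 for CCNE2, -2.50 for CCNA2, -2.62 for CCNB2 and -2.15 for CDK1. Dog 029 had the lowest CCNE2 among B-Cell dogs at the initial timepoint, with 11.8 FPKM. Dog 025 had the highest CCNE2 among Unknown dogs at the initial timepoint, with 44.4 FPKM. The groups of 3 T-Cell dogs were too small for this test.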

How the results depend on the processing

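In the comparison of timepoints over 15 dogs, no member and no gene ID was called with a pseudocount of 0.1, a mean FPKM above 5, another scaling or variance model, without dogs 029 and 038, without dogs 025, 033 and 036, which hold the highest FPKM sums (chosen after the data were seen), or without any dog in turn. With no filter, 3017 gene IDs were called higher and 37 lower, 2832 of the 3054 at a mean FPKM of 1 or less, and 1 member, CCNE2 (adjusted p = 0.0453). DESeq2 on the counts of 9 dogs called 3300 higher, 532 lower and 2 members, and edgeR without a filter called 1 gene lower. Without the replicate block, 0 members and 0 gene IDs were called, and CCNE2 kept its -0.63 with an adjusted p of 1.0. In the T-Cell dogs, a pseudocount of 0.1 gave 12 higher and 1 lower and rescaling to a common sum 1 higher, and leaving out a dog gave 0 to 751 higher, 0 to 740 lower and 0 to 2 members. For the difference in change between T-Cell and B-Cell dogs these were 3 and 1 with a pseudocount of 0.1, and 0 to 333 higher and 0 to 279 lower without a dog, the highest without dog 028. Between T-Cell and B-Cell dogs at the initial timepoint, 15 gene IDs were higher and 34 lower. Higher calls numbered 9 with a pseudocount of 0.1, 8 with no filter, 37 above 5 FPKM, 6 rescaled to a common sum, 41 centred on the median, 1656 without dogs 029 and 038, 0 with edgeR on counts and 2 in T-Cell and B-Cell libraries alone. Lower calls numbered 5 with no filter, 69 above 5 FPKM, 16 rescaled to a common sum, 1790 without dogs 029 and 038, 0 with edgeR and 3 in these libraries alone. Without a dog they were 1 to 1040 higher and 0 to 1256 lower, the highest without dog 038. At 6 weeks there were 6 higher and 5 lower without dogs 029 and 038, and 0 to 4 and 0 to 1 without a dog. The cause of these shifts was not tested, and no member was called in either comparison of labels. The limits are 3 T-Cell dogs, IDs from tables sorted by p-value and, for CDK2, 4 reads in the shallowest library.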
